A study of Mus musculus with 6 samples.

Results

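Thyrotropin-releasing hormone (TRH) and its receptor were examined through the genes Trh and Trhr in mouse embryonic stem (ES) cells. The cells were treated with an siRNA against the chromatin remodeller BRG1 or with a control siRNA. The members were all non-control probes whose gene name in the scanner files is Trh or Trhr, which gave 2 genes with 1 probe each, out of 27962 gene names and 41174 probes on the array. They were selected on their measured values in the comparison of BRG1 siRNA with control siRNA arrays, so those values are given as a description and no test is given for either gene. Of the 2 members, only Trh passed the filter on dim probes, as did 17758 genes in all.

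The cells were mouse ES cells of a genetic background labelled F1 from 129 and C57BL/6, kept in culture. The 3 BRG1 siRNA samples were exposed for 48 h to an siRNA directed at BRG1, the SWI/SNF ATPase encoded by Smarca4, and the 3 control siRNA samples received a scrambled siRNA for the same time. Cy3-labelled cRNA made from 500 ng of total RNA was read on single-colour Agilent arrays, on which the brightness of a spot stands for the level of its transcript. The labels name neither the clone nor separate cultures, so the spread and the p-values describe these arrays, may be technical, and are limited in precision by their number; RNA came from whole cultures, in which fewer cells of a type and less RNA per cell cannot be told apart.

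TRH is a small amidated peptide best known from neurons of the hypothalamus. It is cut from a long precursor that carries several copies of it, is packed into secretory granules, and acts on a receptor that signals through Gq proteins and phospholipase C, in the pituitary to release thyrotropin and so to drive thyroid hormone production. Thyroid hormone in turn represses the Trh gene through its nuclear receptors. BRG1 belongs to complexes that use ATP to move nucleosomes and so alter the access of such factors to DNA.

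The results rest on 1 probe for each gene, and the first 30 of the 60 bases of each probe are shown in order to identify it, 5′ to 3′ as in the file, with that of Trhr2, a further TRH receptor gene of the mouse.
Trh: cttacccacttcaggaacttcaaagagcca
Trhr: gggaggtaaagtacttcctagtgcttatat
Trhr2: tggccttcactgtggagaggtacatcgcca
In the coordinates of the files (build mm7), the Trh probe lies at chr6:92324912-92324971 on the minus strand, the Trhr probe at chr15:44280181-44280240 on the plus strand, and the Trhr2 probe spans chr8:121000849-121002364 on the minus strand. The whole probes hold 41.7% G and C for Trh, 38.3% for Trhr and 55.0% for Trhr2. An exon or UTR annotation for mm7 is not used here, and each probe is located by its coordinates and the transcript named in the files.

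For Trh, the member whose groups did not overlap, the 250 bases before the annotated start are also shown, from the RefSeq promoter table of build GRCm38.p6, at chr6:92244651-92244900 on the minus strand and written 5′ to 3′ on that strand. Capitals mark a match to TGACCT, the reverse complement of AGGTCA, the hexamer that nuclear receptors including those for thyroid hormone recognise.
Trh promoter: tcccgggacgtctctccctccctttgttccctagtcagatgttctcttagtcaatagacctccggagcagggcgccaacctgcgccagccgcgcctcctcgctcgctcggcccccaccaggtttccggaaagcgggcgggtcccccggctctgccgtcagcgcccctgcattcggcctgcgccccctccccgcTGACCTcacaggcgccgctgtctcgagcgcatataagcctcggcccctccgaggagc
Of this stretch 68.8% is G or C, against a median of 52.4% over 32851 promoters of the table, and 89.0% of them are lower. The 4 motifs searched, on both strands, were chosen after the sequence was seen, and none of their matches overlap. The nuclear receptor hexamer matched once with its first base at -57 from the start, and 14.0% of promoters hold it in a window of the same length. The TATA box letters TATAA matched once at -26, as they do somewhere in 22.8% of promoters. The core of the cyclic AMP response element, searched as TGACG, matched once at -96 on the other strand, against 17.8% of promoters. The GC box, searched as GGGCGG, matched once at -117, against 32.7% of promoters. These matches describe letters, since no binding or accessibility was measured.

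Before the members, the array set and the siRNA target were checked. Between 60.9% and 70.9% of spots were well above background on BRG1 siRNA arrays and between 64.8% and 75.3% on control siRNA arrays. The arrays lay on 2 slides, the first holding BRG1 siRNA replicate 1 beside the 3 control siRNA arrays and the other BRG1 siRNA replicates 2 and 3. The scan date in the file headers also differed between the slides. All values below are log2 signals minus the array's own 75th percentile unless the processed signal, the background-subtracted intensity of the scanner software, is named. Smarca4 fell to 65.8% of the control signal by its brightest probe, with 3.70 ± 0.09 on BRG1 siRNA arrays and 4.30 ± 0.07 on control siRNA arrays (SD, n = 3 each; limma adjusted p = 0.00365); the other 2 probes fell to 54.7% and 66.2%. That call was lost with spike-in scaling (adjusted p = 0.117) and with slide 1 alone (adjusted p = 0.0724).

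Trh, the hormone precursor gene, was among the bright genes of these ES cells and was dimmer after BRG1 siRNA. Its processed signal was 16167.3, 15473.0 and 15469.2 on BRG1 siRNA arrays 1 to 3, and 38402.0, 49409.9 and 46423.4 on control siRNA arrays 1 to 3. All 3 BRG1 siRNA arrays lay below every control siRNA array, and the groups did not overlap. On the log2 scale it had 2.91, 2.94 and 2.96 on BRG1 siRNA arrays, with a mean of 2.94 ± 0.02, and 4.29, 4.40 and 4.49 on control siRNA arrays, with a mean of 4.39 ± 0.10 (SD, n = 3 each). The difference was -1.46, a 2.75-fold lower signal that left 36.4% of the control level. The gap between the lowest control siRNA array and the highest BRG1 siRNA array was 1.33, whereas the range within the groups was 0.05 for BRG1 siRNA and 0.20 for control siRNA. For comparison, 23.3% of all genes tested passed the test in either direction and 13.4% in the downward one, and the groups did not overlap for 44.0%; Trh was chosen for this contrast, so nothing is read from these shares.

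The Trh spot itself was well measured. It was well above background on all 6 arrays, with a local background between 55.5 and 63 intensity units, and none of its 63 to 67 pixels per spot was saturated. BRG1 siRNA replicate 1, which shared a slide with the control siRNA arrays, differed from them by -1.48. BRG1 siRNA replicates 2 and 3, on the other slide, differed from the same control siRNA arrays by -1.45. Their slide held no control siRNA array, so it gives no difference of its own. Over 16 other ways of processing or choosing the arrays, several of which cannot move a gene with 1 probe, the difference ran from -1.51 to -1.24, which is 2.85-fold to 2.36-fold lower. The smallest difference came from the spike-in scaling, under which all genes tested had a median of 0.18. Scaling of either kind shifts all genes of an array alike, so Trh relative to the median of all genes tested was at -1.42 by construction under both.

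**Figure D1:**
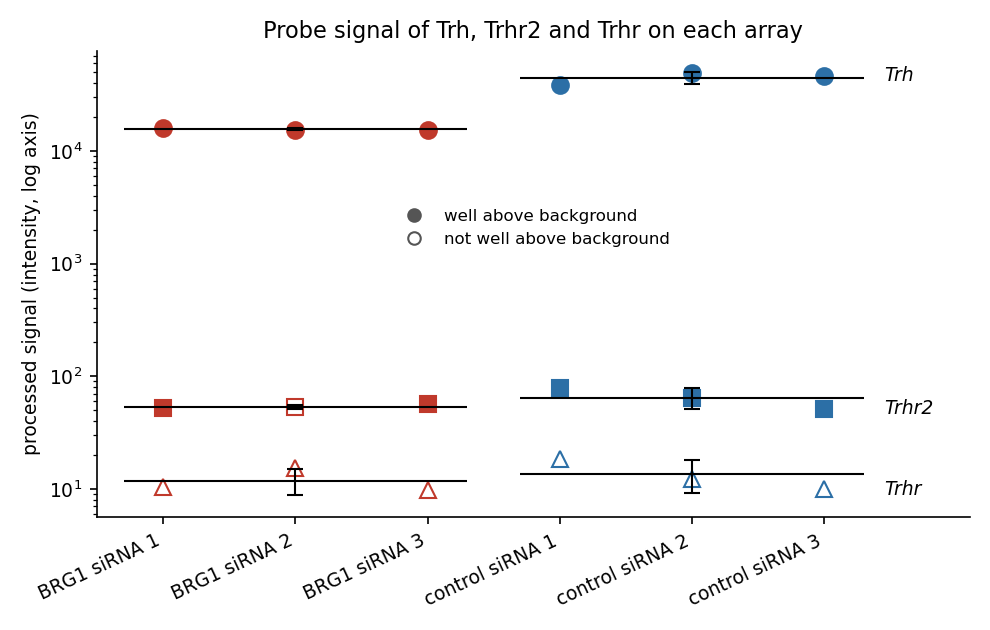
Processed signal (intensity, log axis) of the Trh, Trhr2 and Trhr probes on the 3 BRG1 siRNA arrays (red) and 3 control siRNA arrays (blue); horizontal lines are group means and bars 1 SD (n = 3), and open symbols are spots not well above background. Trh lies near 15703.2 on BRG1 siRNA arrays and 44745.1 on control siRNA arrays, while Trhr stays between 9.7 and 18.5 and is open on all 6 arrays.

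Ranked by brightness among the gene-level probes of each array, Trh was brighter than 90.0% to 90.2% of 27948 to 27961 genes on BRG1 siRNA arrays and than 95.4% to 95.9% on control siRNA arrays. Its rank from the brightest was 2764, 2792 and 2752 on BRG1 siRNA arrays 1 to 3, and 1284, 1164 and 1138 on control siRNA arrays 1 to 3. Every BRG1 siRNA array placed Trh lower than every control siRNA array did. These ranks order the brightness of probes, which differ in how well they hybridise, and not the number of transcripts.

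By size of difference, Trh stood in place 49 from the lowest of the 17758 genes tested, 163 of which were at least 2-fold lower and 41 at least 2-fold higher. On control siRNA arrays 147 of the 163 and 36 of the 41 were below the 75th percentile. Among the 1399 genes in the brightest 5% of the control siRNA arrays, a limit set after the values were seen so as to hold Trh, Trh was the only one at least 2-fold lower and 0 were at least 2-fold higher. The other 1398 had a median difference of -0.09, with 5th and 95th percentiles of -0.31 and 0.14 and a full range from -0.96 to 0.49. Their median SD was 0.07 on BRG1 siRNA arrays and 0.04 on control siRNA arrays, so the spread of Trh was smaller than usual for so bright a gene in the BRG1 siRNA group and larger than usual in the control siRNA group. Over all genes tested the median was -0.04 and the 5th and 95th percentiles were -0.56 and 0.37.

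**Figure D2:**
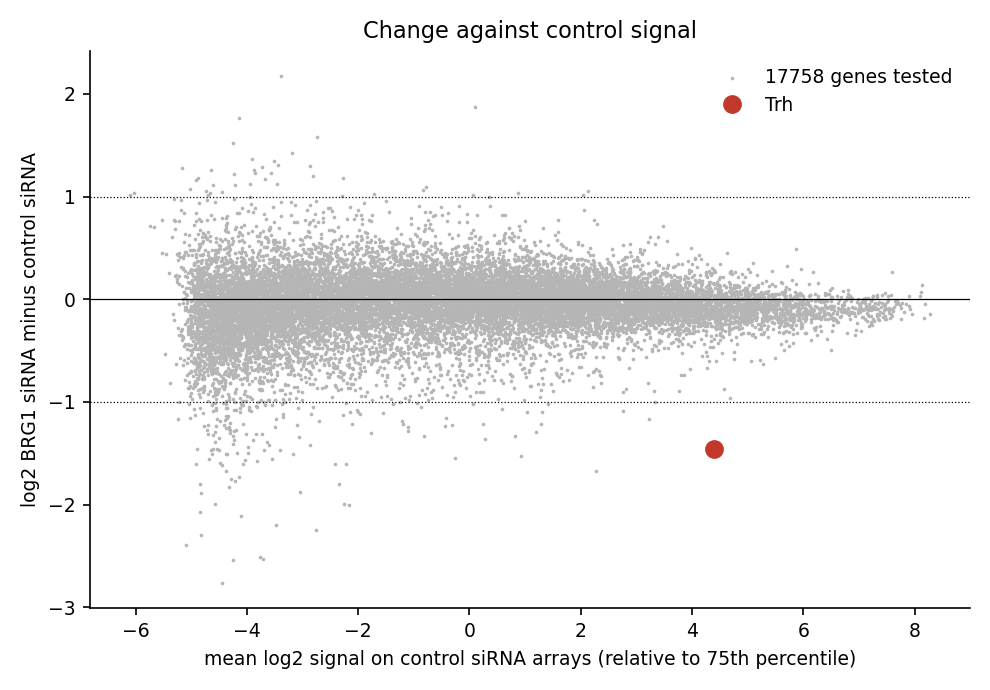
Log2 difference of BRG1 siRNA minus control siRNA (vertical axis) against the mean log2 signal on control siRNA arrays relative to the 75th percentile (horizontal axis) for the 17758 genes tested (grey) and Trh (red); dotted lines mark 2-fold. Trh lies at 4.39 and -1.46, below the other bright genes, while 147 of the 163 genes at least 2-fold lower lie left of 0 on the horizontal axis.

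Trhr, the gene of the receptor through which TRH releases thyrotropin from the pituitary, was not well above background on any array. Its processed signal was 10.4, 15.4 and 9.7 on BRG1 siRNA arrays 1 to 3, and 18.5, 12.3 and 9.9 on control siRNA arrays 1 to 3. The groups overlapped, and 1 control siRNA array was the brightest of the 6. Its log2 signal averaged -7.47 ± 0.38 on BRG1 siRNA arrays and -7.33 ± 0.53 on control siRNA arrays (SD, n = 3 each), whereas the lowest signal called well above background was between -5.68 and -5.06 on BRG1 siRNA arrays and between -5.66 and -5.47 on control siRNA arrays. The measured difference of -0.14 is therefore between signals below detection on both sides, and no fold is given.

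Trhr2, the further TRH receptor gene, was dim but near the limit of detection. Its processed signal was 52.3, 52.8 and 56.2 on BRG1 siRNA arrays 1 to 3, of which the first and the last were well above background, and 78.2, 63.8 and 51.3 on control siRNA arrays 1 to 3, all well above background. The groups overlapped. Its log2 signal was -5.25 ± 0.11 on BRG1 siRNA arrays and -5.06 ± 0.36 on control siRNA arrays (SD, n = 3 each), and the difference of -0.20 ± 0.19 (SE) did not pass the test (limma adjusted p = 0.492).

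The genes around TRH were followed in 6 lists that cover the making, packing and breakdown of the peptide, Gq signalling, the thyroid axis and factors that act on Trh in the hypothalamus. Of 115 genes listed, 113 were on the array and 85 were tested. BRG1 siRNA raised 17 and lowered 21 of them, against 9.87% raised and 13.4% lowered among all genes tested. The 38 genes called are 44.7% of the tested ones, their median difference over all 85 was -0.04, and that over all genes tested was also -0.04. The count fell to 18 with spike-in scaling, of which 13 were raised and 5 lowered, to 22 with median scaling, to 23 without the filter on dim probes and to 25 with the mean over the probes of a gene. It was 21 to 25 without control siRNA replicate 1, 2 or 3 or BRG1 siRNA replicate 2. It fell to 20 with slide as a fixed block and to 0 within slide 1, which holds only 1 BRG1 siRNA array and on which 59 genes passed over the whole array. Given below are up to 4 called genes per list with the largest differences, and a few named for their role.

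Among the enzymes that process prohormones, 2 of 16 tested genes rose and 7 fell, with a median of -0.13. That is 56.2% called, against 23.3% of all genes tested. Pcsk1, which encodes prohormone convertase 1/3, an enzyme that cuts the TRH precursor, had -4.06, -4.05 and -3.99 on BRG1 siRNA arrays and -3.34, -3.47 and -3.27 on control siRNA arrays. The groups did not overlap, as for 44.0% of all genes tested. The fall was 1.59-fold (-0.67 ± 0.06 SE, limma adjusted p = 0.00263). The other tested probe of Pcsk1, at -0.52, was not called. Ctsl, which encodes the protease cathepsin L, had 4.63 ± 0.04 on BRG1 siRNA arrays and 5.22 ± 0.04 on control siRNA arrays (SD, n = 3 each), a 1.50-fold fall (limma adjusted p = 0.00167). Pcsk1n, which encodes proSAAS, an inhibitor of Pcsk1, rose 1.43-fold by its brightest probe (limma adjusted p = 0.0147), while its other 2 probes differed by 0.76 and -0.30.

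Of the genes for other steps of maturation, named after their values were seen, Cpe, the carboxypeptidase that trims basic residues from the cut precursor, fell 1.31-fold (limma adjusted p = 0.00544), with its other probe also called at -0.39. Furin, a convertase of the Golgi, fell 1.20-fold (limma adjusted p = 0.0161), and Cpd, a further carboxypeptidase, 1.28-fold by its brightest probe (adjusted p = 0.00599) with its other probe at 0.34. Qpctl, a glutaminyl cyclase, rose 1.18-fold (limma adjusted p = 0.0205). The calls of these 4 were lost in 3 (Cpe), 11 (Furin), 5 (Cpd) and 10 (Qpctl) of 20 other settings. The rest of these named genes did not pass: Pcsk2, the partner convertase, differed by -0.01 ± 0.15 (SE, limma adjusted p = 0.958), Pam, which amidates the peptide, by 0.09 ± 0.11 (adjusted p = 0.611), and Qpct, which forms its pyroglutamate end, by -0.17 ± 0.20 (adjusted p = 0.574). The calls of Pcsk1 and Ctsl were lost with spike-in scaling. That of Pcsk1n was lost in 7 of 20 other settings, among them the mean over the probes of a gene (adjusted p = 0.209) and slide as a fixed block (adjusted p = 0.113).

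Secretory granule genes, of which 9 were tested, included 3 that rose and 3 that fell, with a median of 0.11. The share called was 66.7%, against 23.3% of all genes tested. Rab27a, a small GTPase that tethers granules at the plasma membrane, had -0.92, -0.89 and -0.86 on BRG1 siRNA arrays and -1.37, -1.41 and -1.38 on control siRNA arrays, a 1.41-fold rise (limma adjusted p = 0.00194). The other tested probe of Rab27a, at 0.35, was not called. Sytl4, which encodes the Rab27 effector granuphilin, was not well above background on the BRG1 siRNA arrays and was so on the 3 control siRNA arrays. Its measured means were -5.79 on BRG1 siRNA arrays and -4.84 on control siRNA arrays, and it was at least 1.48-fold lower (limma adjusted p = 0.0132). A bound of this kind sets the brighter group's mean against, on each array of the dim group, the probe's own signal or the lowest signal well above background, whichever is higher; the call of Sytl4 was lost in 6 of 19 other settings. Stx1a, the SNARE protein syntaxin 1A, rose 1.25-fold (limma adjusted p = 0.00465). Chgb, the granule protein chromogranin B, fell 1.37-fold (limma adjusted p = 0.0345), a call lost in 13 of 20 other settings.

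Peptidases that can break down TRH or like peptides were tested for 6 genes, of which 2 rose and 1 fell, with a median of 0.10. Trhde, the TRH-degrading ectoenzyme, was not well above background on any array. Anpep, aminopeptidase N, was at 0.33 ± 0.06 on BRG1 siRNA arrays and at -0.08 ± 0.08 on control siRNA arrays (SD, n = 3 each), a 1.33-fold rise (limma adjusted p = 0.00779) that was lost with slide as a fixed block (adjusted p = 0.0572). Prepl, a prolyl oligopeptidase-like enzyme, rose 1.17-fold (limma adjusted p = 0.0126), with its other tested probes at 0.23 and 0.30. Dpp4, dipeptidyl peptidase 4, had -2.15, -1.51 and -2.00 on BRG1 siRNA arrays and -1.21, -1.23 and -1.25 on control siRNA arrays, a 1.57-fold fall (limma adjusted p = 0.0414). The call of Dpp4 was lost in 12 of 20 other settings and that of Prepl in 9. Pgpep1, pyroglutamyl peptidase I, and Prep, prolyl endopeptidase, which cut TRH inside cells, differed by 0.07 ± 0.06 (SE, limma adjusted p = 0.438) and by -0.04 ± 0.06 (adjusted p = 0.643).

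Downstream of a TRH receptor, the Gq and phospholipase C list had 3 rises and 3 falls among 22 tested genes, with a median of -0.05. The share called was 27.3%, near the 23.3% of all genes tested. Arrb1, which encodes beta-arrestin 1, a protein that uncouples activated receptors, had 0.91, 0.99 and 1.09 on BRG1 siRNA arrays and 1.73, 1.75 and 1.88 on control siRNA arrays. All BRG1 siRNA arrays lay below all control siRNA arrays. Among all genes tested, the groups did not overlap for 44.0%, in either direction. The fall was 1.73-fold (-0.79 ± 0.07 SE, limma adjusted p = 0.00223). Gna14, a Gq family alpha subunit, had -0.26, -0.29 and -0.27 on BRG1 siRNA arrays and 0.31, 0.33 and 0.35 on control siRNA arrays, a 1.52-fold fall (limma adjusted p = 0.00121) that was lost with spike-in scaling (adjusted p = 0.0979). Grk3, a receptor kinase, fell 1.27-fold (limma adjusted p = 0.043), but its other probes differed by -0.64 and 0.17 and the call was lost in 15 of 20 other settings. Itpr3, an IP3 receptor, rose 1.21-fold (limma adjusted p = 0.0158), a call lost in 8 of them. The main Gq subunits Gnaq and Gna11 differed by -0.03 ± 0.04 (SE, limma adjusted p = 0.602) and by -0.04 ± 0.07 (adjusted p = 0.691).

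The list of the thyrotropin and thyroid hormone axis had 4 rises and 6 falls among 22 tested genes of 36, with a median of -0.06. This list thus had 45.5% of its tested genes called, against 23.3% of all genes tested. Its pituitary and thyroid members were largely undetected: Tshb and Tshr, which encode the thyrotropin beta chain and the thyrotropin receptor, were among 7 members not well above background on any array. By their brightest probes, the 4 genes that rose were Cga at 0.67, Ncor1 at 0.54, Ncoa1 at 0.45 and Ncoa3 at 0.37. The other tested probes of Ncor1 differed by 0.47, 0.45, -0.17 and 0.27, and its call was lost with the mean over its probes. Some of the 6 that fell are described next. Rxrg encodes a retinoid X receptor, a kind of receptor that pairs with thyroid hormone receptors. It had -0.81, -0.81 and -0.74 on BRG1 siRNA arrays and 0.14, 0.09 and 0.13 on control siRNA arrays. This was a 1.87-fold fall (-0.91 ± 0.04 SE, limma adjusted p = 0.000803). Its groups did not overlap, as for 44.0% of all genes tested. Rxrb, of the same kind, differed by 0.0 ± 0.07 (SE, limma adjusted p = 0.976).

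Slc16a10, an amino acid and thyroid hormone transporter, fell 1.63-fold (limma adjusted p = 0.00285), with its other 2 probes at -0.41 and -0.72, and its call was lost with spike-in scaling (adjusted p = 0.0587). Crym, a cytosolic thyroid hormone binding protein, was at -0.56 ± 0.09 on BRG1 siRNA arrays and at 0.16 ± 0.04 on control siRNA arrays (SD, n = 3 each), a 1.65-fold fall (limma adjusted p = 0.00201). Of the hormone receptors themselves, Thra differed by 0.16 ± 0.06 (SE, limma adjusted p = 0.0908), and Thrb was well above background on 1 BRG1 siRNA array and 1 control siRNA array and was not tested.

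Factors that act on Trh in hypothalamic neurons were tested for 10 of 15 genes, of which 3 rose and 1 fell, with a median of 0.02. These calls are 40.0% of the 10, against 23.3% of all genes tested. Sim1, needed for the neurons that make TRH, was not well above background on any array. Its partner Arnt2 fell 1.53-fold, with -4.59 ± 0.24 on BRG1 siRNA arrays, 2 of them well above background, and -3.97 ± 0.11 on control siRNA arrays (SD, n = 3 each; limma adjusted p = 0.0267). Gli2, a Hedgehog pathway factor, rose 1.31-fold (limma adjusted p = 0.0107), though its other probe was at -0.07. Nr3c1, the glucocorticoid receptor, rose 1.25-fold (limma adjusted p = 0.0287), with its other tested probes at 0.22, 0.29 and 0.12. Ep300, a histone acetyltransferase, rose 1.20-fold (limma adjusted p = 0.0263), while its other tested probe, at 0.07, was not called. The calls of Arnt2, Gli2, Nr3c1 and Ep300 were lost in 9 of 19 and in 4, 12 and 10 of 20 other settings. Creb1 and Stat3, which carry cyclic AMP and leptin signals to Trh, differed by 0.04 ± 0.10 (SE, limma adjusted p = 0.813) and by 0.01 ± 0.06 (adjusted p = 0.947).

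**Figure D3:**
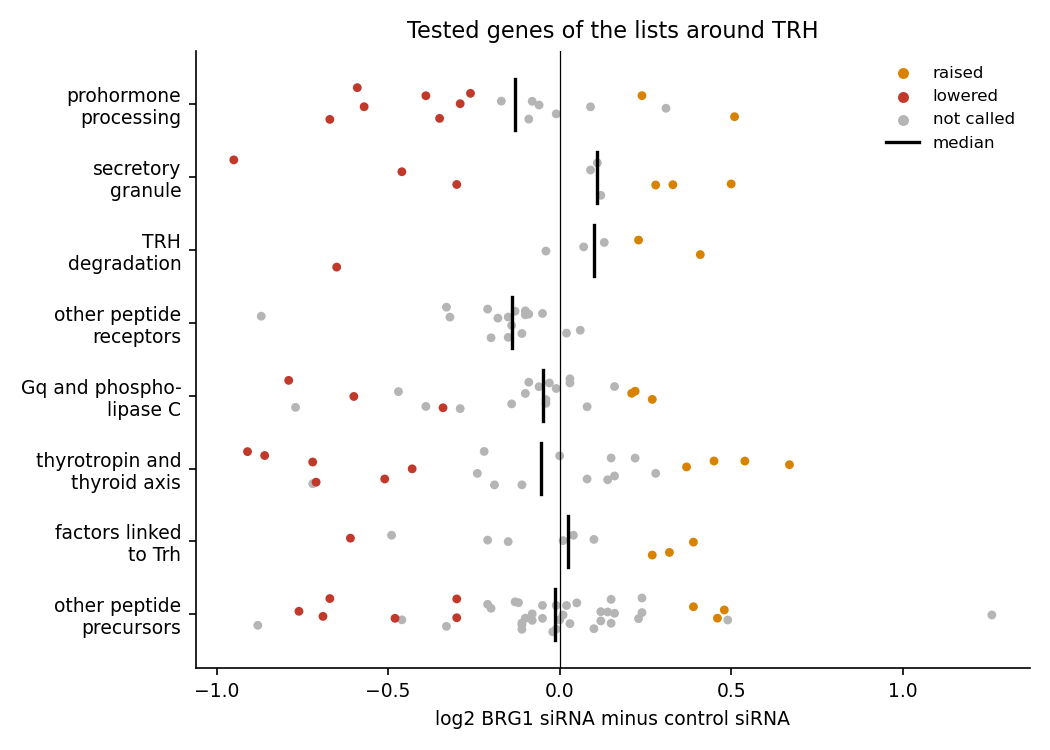
Log2 difference of BRG1 siRNA minus control siRNA for each tested gene of 8 lists around TRH (points; vertical offset within a list has no meaning), with the list median as a black line; orange points were raised and red points lowered in the limma test. The largest falls include Rxrg at -0.91 in the thyroid axis and Arrb1 at -0.79 in the Gq list, Sytl4 is drawn at its measured difference although it has only a bound, and no point of the other peptide receptors is coloured.

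Other peptide hormone and neuropeptide genes were set beside Trh. Of 75 listed precursors 69 were on the array and 44 tested, of which 3 rose and 6 fell, 20.5% against 23.3% of all genes tested, with a median of -0.02. Edn2, the vasoconstrictor peptide endothelin 2, had -2.73, -2.78 and -2.71 on BRG1 siRNA arrays and -1.83, -2.01 and -2.10 on control siRNA arrays, a 1.69-fold fall (limma adjusted p = 0.0033). Apln, the precursor of apelin, fell 1.61-fold by its brightest probe (limma adjusted p = 0.00639) and its other tested probe was at -1.25. Stc2, stanniocalcin 2, fell 1.59-fold (limma adjusted p = 0.00366), and Rln1, relaxin 1, 1.39-fold (adjusted p = 0.0101). With spike-in scaling the calls of Apln (adjusted p = 0.0531), Stc2 (0.0622) and Rln1 (0.212) were lost. That of Rln1 was also lost with slide as a fixed block (adjusted p = 0.0554) and without control siRNA replicate 3, and that of Apln with the mean over its probes (adjusted p = 0.207).

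The 3 precursors that rose were Edn1, endothelin 1, 1.39-fold (limma adjusted p = 0.00366), Penk, proenkephalin, 1.37-fold (adjusted p = 0.00423), and Rln3, relaxin 3, 1.31-fold (adjusted p = 0.043); these and Nts were named after their values were seen, and the call of Rln3 was lost in 11 of 20 other settings. Nts, the neurotensin precursor, had the greatest measured difference of the list but varied between arrays, with -3.91, -3.58 and -2.65 on BRG1 siRNA arrays and -4.19, -5.13 and -4.61 on control siRNA arrays. Its difference of 1.26 ± 0.39 (SE) did not pass the test (limma adjusted p = 0.0702).

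Among receptors of other hypothalamic hormones and peptides, Trhr2 included, 43 of 44 were on the array and 17 were tested. limma called 0 of the 17, against 23.3% of all genes tested, with 1 at an unadjusted p under 0.05. These 17 were dim, with control means from -5.06 for Trhr2 to -1.72 for Mc3r, so the count says little. Their median difference was -0.14, and 26 of the 43 were not tested, 14 of them not well above background on any of the 6 arrays. Leaving out control siRNA replicate 2, BRG1 siRNA replicate 1 or BRG1 siRNA replicate 3 gave 1 call.

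Markers of the cell types that make or answer TRH, and of fibroblasts, were summed as signal relative to the 75th percentile. On this linear scale the brightest probes weigh most. Among ES cell markers Dppa5a, Klf2 and Zfp42 had log2 control means of 7.91, 7.09 and 6.87, against 1.59 for Tcl1. Among neuron markers Nefl, Tubb3 and Stmn2 were brightest, at 3.11, 2.86 and 2.26. All 14 ES cell markers on the array were well above background on all 6 arrays, with sums of 625.11 to 684.82 on BRG1 siRNA arrays and 616.74 to 691.72 on control siRNA arrays. Of the 14, Utf1, Nanog and Klf4 rose 1.35-fold, 1.33-fold and 1.27-fold, and Pou5f1 fell 1.25-fold (limma adjusted p between 0.0138 and 0.0298). These 4 are 28.6% of the 14, against 23.3% of all genes tested called in either direction. The 15 neuron markers summed to 22.24 to 23.3 on BRG1 siRNA arrays and 23.11 to 23.81 on control siRNA arrays. Of 11 tested, 5 were called, 45.5% against 23.3% of all genes tested, with a median of -0.21. Elavl4 rose 1.80-fold (limma adjusted p = 0.00101). By their brightest probes, Map2, Nefm, Nefl and Gap43 fell 1.28-fold, 1.19-fold, 1.17-fold and 1.16-fold (limma adjusted p between 0.0201 and 0.0389). Sim1 and Otp, needed for neurons of the hypothalamus that include those making TRH, were not well above background on any array. The 12 pituitary markers summed to 1.4 to 1.67 on BRG1 siRNA arrays and 1.42 to 1.58 on control siRNA arrays. Of these, Tshb, Pou1f1, Ghrhr and Gnrhr were not well above background on any array. Of 6 tested, Cga, the glycoprotein hormone alpha chain, rose 1.59-fold (limma adjusted p = 0.0127) and 0 fell. This 1 call is 16.7% of the 6, against 23.3% of all genes tested. The calls of Pou5f1, Utf1, Klf4, Nanog and Cga were lost in 11, 9, 8, 6 and 3 of 20 other settings. Those of Map2, Nefm, Nefl and Gap43 were kept in only 7, 9, 8 and 8 of the 20.

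The summed signal of the fibroblast markers was lower on BRG1 siRNA arrays, as was that of Trh. The 12 of them summed to 11.1 to 12.24 on BRG1 siRNA arrays and 16.62 to 18.27 on control siRNA arrays, without overlap; without S100a4, left out after its values were seen, they summed to 7.91 to 9.14 on BRG1 siRNA arrays and 10.34 to 11.11 on control siRNA arrays. Of 9 tested genes 5 fell, 0 rose and 4 did not pass the test. Among all genes tested 13.4% fell and 9.87% rose, and the groups did not overlap for 44.0%. S100a4, a calcium-binding protein of motile cells, fell 2.12-fold (limma adjusted p = 0.00103), Thy1 1.73-fold (adjusted p = 0.00246), Col3a1 1.66-fold (adjusted p = 0.00456) and Col1a1 1.28-fold by its brightest probe (adjusted p = 0.0105) with its other tested probe at 0.01. The other tested probe of Thy1, at -0.47, was not called. Pdgfrb also fell, 1.18-fold (adjusted p = 0.0473). Col1a2, Postn, Dcn and Fbln2 differed by 0.01, -0.04, -0.19 and -0.24 (limma adjusted p of 0.185 or more), while Fap was not well above background on any array. The calls of Col1a1 and Pdgfrb were lost in 8 and 15 of 20 other settings. Their part in the difference of Trh was not tested.

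The genes around Trh on chromosome 6 were read from the probe coordinates. Within 500 kb of the Trh probe there were 20 other probes for 11 gene names, 9 of them tested. limma called 0 of the 9, against 23.3% of all genes tested, and 3 had an unadjusted p under 0.05, so with 9 genes the count says little. Their median difference was -0.07. The nearest tested probe, 57.2 kb away, belonged to Rbsn, which encodes an endosomal protein and differed by -0.15 ± 0.05 (SE, limma adjusted p = 0.0665). Mrps25, a mitochondrial ribosomal protein, differed by -0.05 ± 0.06 (adjusted p = 0.58), Nr2c2, an orphan nuclear receptor, by 0.24 ± 0.13 (adjusted p = 0.241), and Slc6a6, the taurine transporter, by 0.33 ± 0.19 (adjusted p = 0.258). By their other probes well above background on all 6 arrays, Rbsn, Mrps25, Nr2c2 and Slc6a6 differed by 0.2, 0.18, -0.14 and -0.0. The direction in Rbsn, Mrps25 and Nr2c2 thus depends on the probe. Fgd5 and Ccdc174 differed by 0.00 and -0.07, and the transcript AK039370 by -0.23 ± 0.06 (adjusted p = 0.055). The 2 with the largest differences were dim on BRG1 siRNA arrays: 4930590J08Rik, at -0.63 ± 0.17 (adjusted p = 0.05, not under the threshold before rounding), was well above background on 1 of them, and Prickle2, at -0.64 ± 0.49 (adjusted p = 0.395), on 2.

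**Figure D4:**
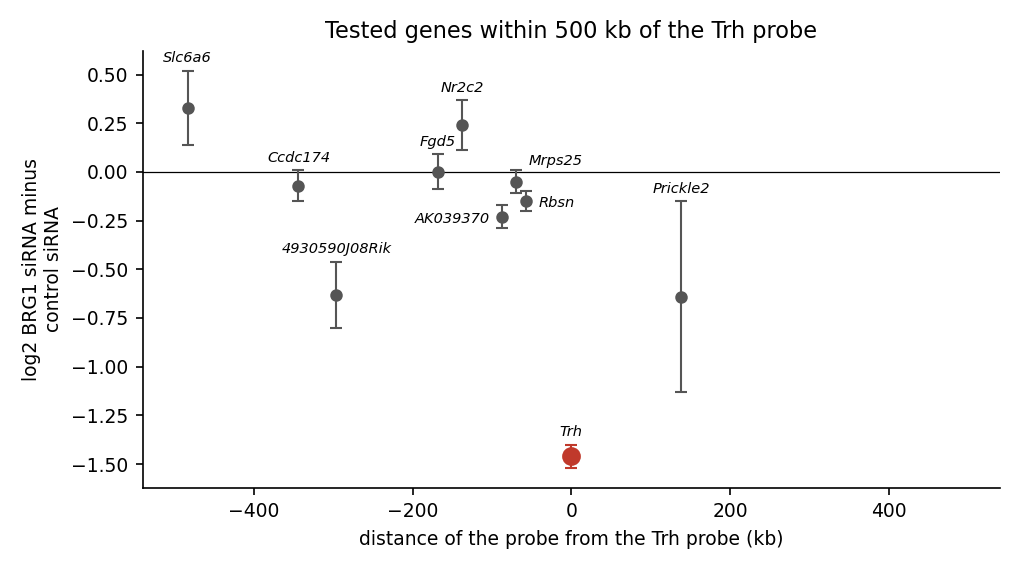
Log2 difference of BRG1 siRNA minus control siRNA (points, bars 1 SE) for Trh (red) and the 9 tested genes with a probe within 500 kb (grey), against the distance of the probe from the Trh probe in kb on mm7. Each gene is drawn by its brightest probe only. The 9 neighbours lie between -0.64 and 0.33, and Trh lies at -1.46.

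The genes with values most like those of Trh were found by centring each gene on its own control mean and taking the root mean square difference from Trh over the 6 arrays. Over 17738 genes with a value on every array the median of this measure was 1.02, and the 6 closest lay between 0.061 and 0.118. They were chosen by their values, so they are described with no test. Gpx2, glutathione peroxidase 2, had -0.65, -0.52 and -0.59 on BRG1 siRNA arrays and 0.92, 0.95 and 0.93 on control siRNA arrays, a difference of -1.52. Glrx, glutaredoxin, had -0.13, -0.07 and -0.09 on BRG1 siRNA arrays and 1.10, 1.25 and 1.24 on control siRNA arrays, a difference of -1.30. Trim67, a tripartite motif protein, had -2.20, -2.19 and -2.07 on BRG1 siRNA arrays and -0.92, -0.82 and -0.73 on control siRNA arrays, a difference of -1.33.

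Of the other 3, 9430028L06Rik and Plekhs1 were well above background on 2 of 3 BRG1 siRNA arrays, with differences of -1.42 and -1.40, and Prr15 on none of them, so that it was at least 2.19-fold lower. The correlation of these 6 with Trh was 0.994 to 0.999 over 6 arrays that fall into the 2 groups compared, so it repeats the group difference.

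**Figure D5:**
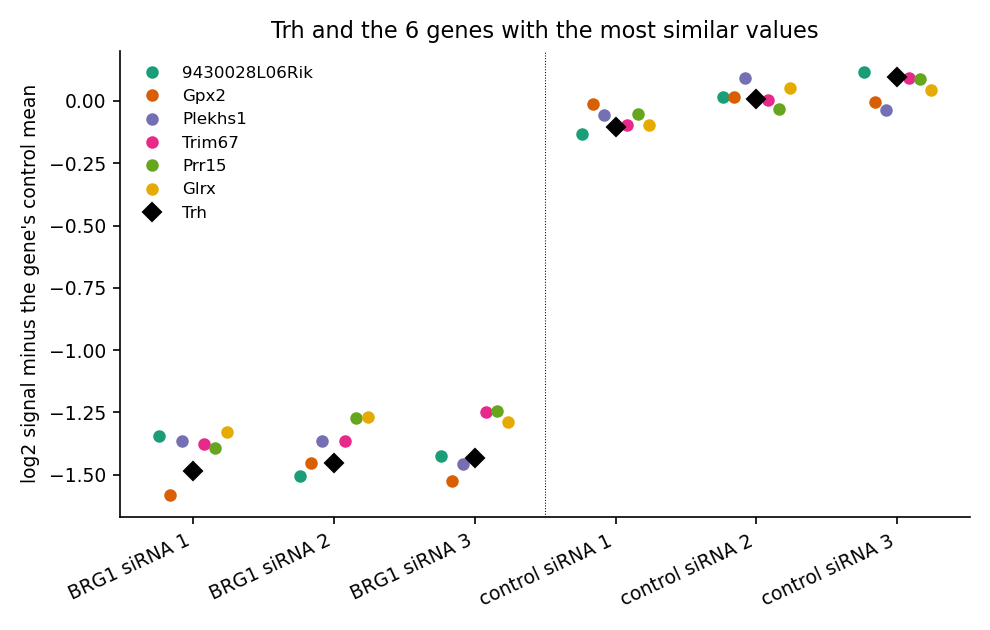
Log2 signal minus the gene's own control mean on each of the 3 BRG1 siRNA and 3 control siRNA arrays, for Trh (black diamonds) and the 6 genes with the smallest root mean square difference from it (coloured points, shifted sideways for clarity). On BRG1 siRNA arrays all 7 measured values lie below their control means; those of Prr15, and 1 each of 9430028L06Rik and Plekhs1, come from spots not well above background and stand for bounds only.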

How the data were processed

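Total RNA of mouse ES cells was profiled on 6 single-colour Agilent arrays, 3 with BRG1 siRNA and 3 with control siRNA, grouped from the labels. The deposited scanner files hold spot intensity made by the authors with Agilent Feature Extraction 9.5.3.1 (per the file headers; 9.5 per the submitters' processing notes), already background-subtracted and not scaled between arrays; the deposited value table equals that processed signal (largest difference 0), with linear scale, no centring, no ratio direction, and medians of 167.2, 161.8 and 172.6 (BRG1 siRNA) and 185.5, 181.3 and 173.3 (control siRNA). Pixel numbers per spot and background flags are other values that the scanner software wrote, per the file headers.

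Each array's processed signals were divided by their 75th percentile over the 43379 non-control spots and put on the log2 scale; outlier spots were left out, spots of a probe averaged, and a gene represented by its brightest probe. A gene was tested if 1 or both groups had that probe well above background on all 3 arrays. Groups were compared with limma 3.58.1 (lmFit, eBayes; R 4.3.3), two-sided, Benjamini-Hochberg over all genes tested, threshold 0.05; "rose", "fell" and "called" mean past it. The method was tested on simulated data. Names were updated through a GRCm38.p6 table: 11917 tested genes by accession, 1767 by symbol, 4074 kept. Replicate numbers were not taken as pairs, since arrays sharing a number did not deviate together (correlations of -0.31, 0.105 and -0.018).

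The members, the 12 gene lists and the tests were chosen with earlier results of these data known. Named were Trh, Trhr and Smarca4 with every probe, up to 4 called genes of each list with the largest change, the 6 genes most like Trh, genes within 500 kb of its probe, and, outside that rule, some for their role; a few genes that the rule takes are not reported here, though the counts hold them. The alternatives are given in the closing section.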

Additional observations from a re-analysis of the deposited data

How the results depend on the processing

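Of the 16 other settings for Trh, the mean over probes, the replicate block and the deposited value table could not move it, and both slide settings are the same contrast (-1.48). The difference was below 0 in all 16 and moved by more than the spread of the arrays with normexp background correction and quantile normalization (-1.35) and with spike-in scaling (-1.24). The share of genes dimmer than Trh on control siRNA arrays, 95.72% at first, was 92.75% over probes well above background on all 6 arrays and 97.25% with the mean over the probes of a gene. The 4139 genes called became 1734 with median scaling, 1937 with spike-in scaling (1550 raised and 387 lowered, against 1752 and 2387), 1749 without a filter on dim probes, 1392 with slide as a fixed block, 59 with slide 1 alone and 2596 with the mean over probes. The 38 genes called in the lists around TRH became 22, 18, 23, 20, 0 and 25 in the same order; the 9 peptide precursors became 5 with slide as a fixed block, 0 with slide 1 alone and 5 with the mean over probes. Leaving out single arrays gave 1641 (without control siRNA replicate 3) to 4413 genes (without BRG1 siRNA replicate 3, which alone kept the count within 1.5 times), 21 (without control siRNA replicate 2) to 39 list genes and 0 to 1 peptide receptors. The replicate number as a block, which does not pair these samples, gave 1945 genes and 22 list genes. Of 62 single genes called, all 62 lost the call with slide 1 alone, which leaves 1 BRG1 siRNA array, 31 with slide as a fixed block and 33 with spike-in scaling, under which the neuron marker Gap43 was also lost, at 0.00; 0 lost it with slide as a random block. The cause of these changes was not tested.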
